A study of Mus musculus with 18 samples.

Results

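The genes described here are 10 imprinted genes that restrain or drive growth before and after birth: H19, Dlk1, Meg3, Rian, Peg3, Plagl1, Mest, Cdkn1c, Grb10 and Ndn. They were taken from the 54281 genes of the deposited count table by matching their Ensembl identifiers to these symbols in mouse GENCODE, and all 10 were found. RNA was measured in the descending aorta of 18 male C57BL/6 mice, 6 in each of 3 groups. The HGPS mice were homozygous for the Lmna G609G knock-in, which makes the truncated lamin A called progerin in every cell that transcribes Lmna, and were 64 to 75 d old. The 2-mo WT mice were 62 d old, apart from replicate 6 at 95 d. Age at 24 mo ran from 609 to 762 d. Both WT groups carried no engineered allele, no group was treated, and each library held the intima, media and adventitia of a single aorta.

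Imprinted genes are transcribed mainly from the copy inherited from one parent, and many of them lie in clusters in which a control region methylated in only 1 germ line sets the choice. Maternally expressed members of this group, such as the noncoding RNAs H19, Meg3 and Rian and the inhibitors Cdkn1c and Grb10, are mostly known as brakes on growth, and paternally expressed members such as Dlk1, Peg3, Plagl1, Mest and Ndn mostly act in the fetus and fall after birth. In vessels, H19 is abundant in the fetal wall, low in the adult wall, and raised again after injury. The libraries came from inbred mice and were counted per gene, so the parental copies cannot be told apart, and a value is the sum of both.

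The members lie in 7 regions of the genome (GENCODE coordinates, GRCm38). H19 (ENSMUSG00000000031) occupies chr7:142575529-142578143 on the minus strand, and Cdkn1c (ENSMUSG00000037664), at chr7:143458339-143461050 on the minus strand, belongs to the adjoining Kcnq1 domain. Peg3 (ENSMUSG00000002265) lies at chr7:6703892-6730431 on the minus strand and Ndn (ENSMUSG00000033585) at chr7:62346569-62350262 on the plus strand. Dlk1 (ENSMUSG00000040856, chr12:109452823-109463336), Meg3 (ENSMUSG00000021268, chr12:109541001-109571726) and Rian (ENSMUSG00000097451, chr12:109603940-109661716) follow each other on the plus strand in the Dlk1-Dio3 cluster. Mest (ENSMUSG00000051855) lies at chr6:30723547-30748465 and Plagl1 (ENSMUSG00000019817) at chr10:13060504-13131694, both on the plus strand, and Grb10 (ENSMUSG00000020176) at chr11:11930508-12038683 on the minus strand. Exons of Copg2, on the opposite strand, overlap those of Mest. The library kit kept strand, but whether the counting used it is not given in the sources used here, so reads of Mest and Copg2 may be mixed.

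Several members are hosts of microRNAs, short RNAs that pair with messages through bases 2 to 8, the seed. MicroRNAs of H19, Rian and Mest are shown because these 3 hosts were higher in HGPS aortas, with 1 arm of each of the 3 Rian hairpins for brevity, and capitals mark the seed (RefSeq, GRCm38.p6).
miR-675-5p (H19, chr7:142577112-142577133, minus strand, in an exon): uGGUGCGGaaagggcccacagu
miR-675-3p (H19, chr7:142577078-142577099, minus strand, in an exon): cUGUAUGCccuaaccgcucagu
miR-335-5p (Mest, chr6:30741314-30741336, plus strand, in an intron): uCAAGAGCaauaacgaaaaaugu
miR-335-3p (Mest, chr6:30741354-30741375, plus strand, in an intron): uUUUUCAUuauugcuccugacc
miR-341-5p (Rian, chr12:109611521-109611541, plus strand, in an intron): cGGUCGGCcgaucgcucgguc
miR-1188-5p (Rian, chr12:109611841-109611861, plus strand, in an intron): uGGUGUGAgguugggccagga
miR-370-3p (Rian, chr12:109618305-109618326, plus strand, in an intron): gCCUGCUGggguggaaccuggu

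The 6 mature microRNAs of Rian, the 2 of H19 and the 2 of Mest all had different seeds. Their own loci, 3 in Rian, 1 in H19 and 1 in Mest, had 0 counts in all 18 mice. The total RNA libraries were not made for RNAs of this length, so the values below are those of the host transcripts and say nothing of the microRNAs. The Meg3 locus also hosts microRNAs, at 2 loci of the count table, and these had 0 counts as well.

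Promoter windows (250 bases before to 50 after the start, RefSeq, GRCm38.p6) were found for 8 of the 10 members, 12 windows in all. They differed widely in CpG, the dinucleotide that imprints methylate. No window was found for H19 or Cdkn1c. The windows below belong to the members that differed between HGPS and 2-mo WT aortas, apart from H19, and capitals mark CpG. For Mest the second of its 3 starts is shown.
Rian (chr12:109603695-109603994, plus strand): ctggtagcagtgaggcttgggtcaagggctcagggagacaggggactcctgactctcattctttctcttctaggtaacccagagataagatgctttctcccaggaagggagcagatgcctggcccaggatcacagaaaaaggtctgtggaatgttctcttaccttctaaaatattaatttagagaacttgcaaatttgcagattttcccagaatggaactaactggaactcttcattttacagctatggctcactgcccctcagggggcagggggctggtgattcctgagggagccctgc
Mest (chr6:30737800-30738099, plus strand): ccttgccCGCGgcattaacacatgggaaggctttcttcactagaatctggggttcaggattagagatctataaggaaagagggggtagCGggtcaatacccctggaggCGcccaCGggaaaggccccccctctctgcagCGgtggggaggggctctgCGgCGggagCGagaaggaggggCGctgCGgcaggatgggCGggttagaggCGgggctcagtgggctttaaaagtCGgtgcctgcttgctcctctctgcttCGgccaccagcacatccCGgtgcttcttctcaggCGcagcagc
Peg3 (chr7:6730370-6730669, minus strand): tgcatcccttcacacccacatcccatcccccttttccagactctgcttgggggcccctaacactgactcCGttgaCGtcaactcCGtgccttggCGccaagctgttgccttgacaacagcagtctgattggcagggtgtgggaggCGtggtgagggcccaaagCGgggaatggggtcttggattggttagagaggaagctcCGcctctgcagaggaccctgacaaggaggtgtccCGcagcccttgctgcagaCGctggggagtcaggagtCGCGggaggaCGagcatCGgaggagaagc

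The Rian window held 0 CpG, where the median of all 32851 windows was 7. The Mest window held 17 CpG, and 68.6% of all windows held fewer. The Peg3 window held 13 CpG, and 62.1% of windows held fewer. At the upper end was the first Grb10 start with 45 CpG, above 98.1% of all windows. The Plagl1 window held 26 CpG, and 83.1% of windows held fewer. The letters GGGGCCCC, a reported element of the zinc finger protein that Plagl1 encodes and its own reverse complement, were found in 1 of the 12 member windows, that of Peg3. They occurred in 354 of all windows, or 1.08%.

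Per kilobase of exon, Grb10 was the most abundant member in all 3 groups and Dlk1 the least. In 2-mo WT aortas the mean levels, in CPM (counts scaled to library size) per kb, were 10.4 for Grb10, 6.36 for Cdkn1c, 6.2 for Ndn, 5.38 for Peg3 and 3.25 for Rian. H19 followed at 0.801, Plagl1 at 0.776, Meg3 at 0.504, Mest at 0.4 and Dlk1 at 0.0115 CPM per kb. In HGPS aortas Rian was second at 5.77 CPM per kb and H19 next below Ndn at 4.46 CPM per kb, and in 24-mo WT aortas Rian stood at 1.53 and H19 at 0.388 CPM per kb, below Peg3 and Mest in turn.

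**Figure D1:**
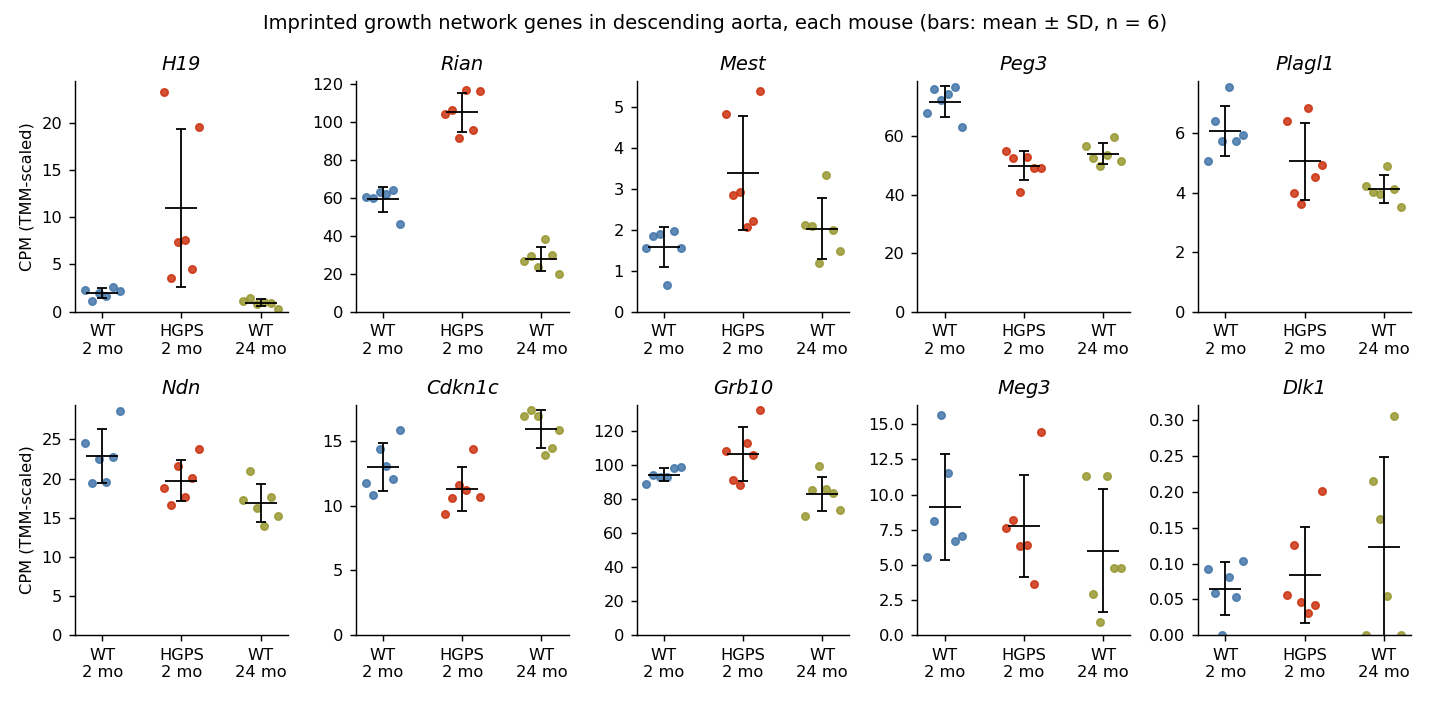
Each panel plots a member, with 1 point per mouse and level in CPM on the vertical axis, for 2-mo WT, 2-mo HGPS and 24-mo WT mice (n = 6 each). Horizontal bars are means and error bars SD, cut at 0. H19 and Rian of HGPS mice lie above every WT mouse, and Peg3 lies highest in the 2-mo WT mice.

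The comparison of HGPS with 2-mo WT mice asks how the members differ in a progerin-expressing aorta at the same age. The noncoding RNAs H19 and Rian and the fetal gene Mest were higher and the zinc finger gene Peg3 was lower. H19 was 5.48-fold higher, Mest 2.1-fold and Rian 1.77-fold, and Peg3 stood at 0.696 of its 2-mo WT level. The other 5 tested members did not pass the test, and Dlk1 was too low to test. Thus 3 of 9 tested members were higher, where 22% of all 15210 tested genes were, and 1 of 9 was lower, where 21.2% were (edgeR quasi-likelihood test, Benjamini-Hochberg adjusted p under 0.05). At the stricter limits of the study (adjusted p under 0.001 and at least 1.5-fold up or down), 2 members passed, H19 and Rian, against 9.50% of all tested genes. The CPM ranges of the groups did not overlap for 4 of the 9, the same 4 that were called, against 21.9% of all tested genes. The median log2 fold change of the members was -0.20, against 0.0026 over all tested genes.

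The comparison of 24-mo with 2-mo WT mice asks how the members change over normal adult life. Rian fell to 0.472, Plagl1 to 0.682, Ndn to 0.735 and Peg3 to 0.753 of their 2-mo levels. No tested member was higher (0 of 9, against 6.29% of all tested genes), and 4 of 9 were lower, against 5.38% (edgeR, adjusted p under 0.05). At an unadjusted p under 0.05 there was 1 higher member, Cdkn1c (0.013), and DESeq2 also called 0 higher. The log2 fold changes of Cdkn1c and Mest, whose means were above those at 2 mo, were 0.29 ± 0.107 and 0.35 ± 0.3 (SE, edgeR adjusted p 0.0846 and 0.514). Rian alone passed the cut-offs of the study (1 of 9, against 2.00%), and the ranges of the groups did not overlap for Rian, Peg3 and Plagl1 (3 of 9, against 6.28%). The median log2 fold change of the 9 members was -0.45, against 0.0083 over all tested genes. Both comparisons used the same 2-mo WT mice as controls.

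The direct contrast of HGPS with 24-mo WT mice tests whether those differences from 2-mo WT differ from each other, although age and genotype change together in it. H19, Rian, Mest and Grb10 were higher in HGPS aortas (4 of 9, against 23.8% of all tested genes) and Cdkn1c was lower (1 of 9, against 23.6%). The cut-offs of the study were passed by H19, 11.4-fold higher, and Rian, 3.76-fold higher (2 of 9, against 12.1%). The median log2 fold change of the members was 0.36, against -0.011 over all tested genes. For Peg3, Plagl1, Ndn and Meg3 the contrast did not pass, with log2 fold changes of -0.11 ± 0.0711, 0.29 ± 0.154, 0.23 ± 0.111 and 0.36 (adjusted p 0.201, 0.126, 0.103 and 0.507).

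**Figure D2:**
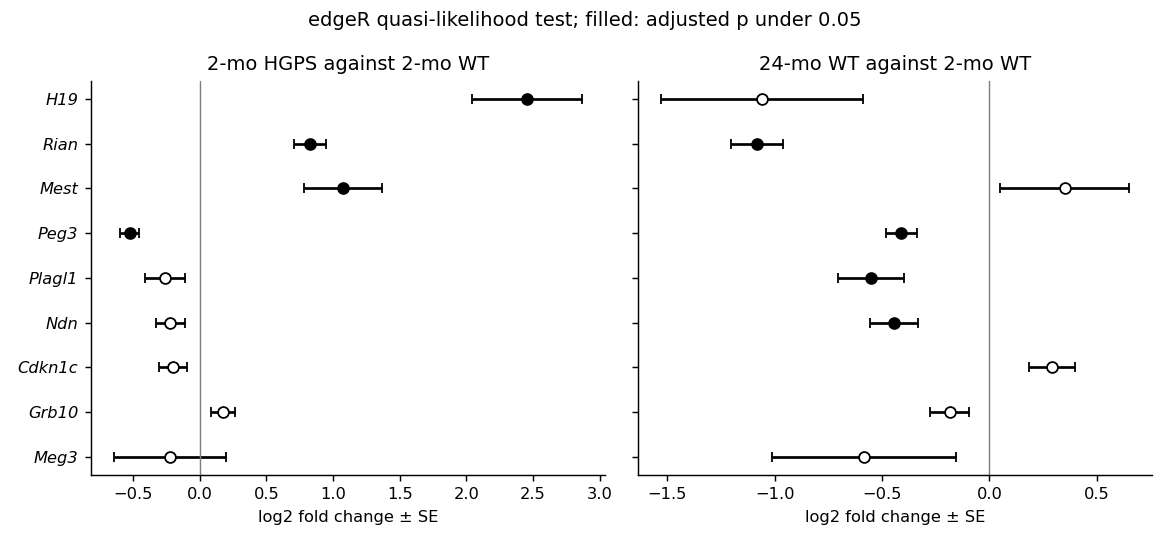
Log2 fold changes of the 9 tested members (horizontal axis) with SE as error bars, for 2-mo HGPS against 2-mo WT mice (left) and 24-mo against 2-mo WT mice (right), 6 mice per group. Filled points passed an adjusted p under 0.05. Rian lies at 0.83 on the left and at -1.08 on the right, and Peg3 at -0.52 and -0.41.

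H19 is a noncoding RNA made from the maternal copy next to Igf2, and its transcript is the precursor of miR-675. In HGPS aortas it ranged from 3.527 to 23.27 CPM with a median of 7.47, in 2-mo WT aortas from 1.185 to 2.567 with a median of 2.098, and in 24-mo WT aortas from 0.3082 to 1.435 CPM with a median of 0.9745. Every HGPS mouse was above every WT mouse. HGPS replicates 1 and 6 stood at 23.27 and 19.58 CPM and the other 4 HGPS mice at 3.527, 4.47, 7.377 and 7.563 CPM, which gave H19 the widest spread among the tested members in HGPS aortas, an SD of 76% of the mean. The log2 fold change was 2.45 ± 0.412 (SE, adjusted p 0.000117) against 2-mo WT and 3.51 ± 0.447 (adjusted p 4.31e-06) against 24-mo WT mice. Without HGPS replicates 1 and 6, an alternative chosen after seeing the data, the log2 fold changes were 1.53 ± 0.29 (adjusted p 0.000776) and 2.59 ± 0.306 (adjusted p 6.87e-06). The 24-mo mean was 0.9546 ± 0.3755 CPM, against 1.97 ± 0.4928 at 2 mo (SD, n = 6), and this difference did not pass (log2 fold change -1.06 ± 0.469, adjusted p 0.161). Counts at 24 mo were 5 to 20 per mouse. With the 2 WT groups fitted alone the log2 fold change was -1.05 and passed (adjusted p 0.0397).

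Igf2, the growth factor gene that shares enhancers with H19 and is expressed from the paternal copy, did not pass in any comparison. Its level was 5.112 ± 1.181 CPM in HGPS, 6.564 ± 1.522 in 2-mo WT and 6.163 ± 2.084 in 24-mo WT aortas, and the 3 ranges overlapped. The log2 fold change of HGPS against 2-mo WT was -0.37 ± 0.222 (adjusted p 0.196). Igf2r, the receptor that clears this ligand, was slightly higher in HGPS than in 2-mo WT aortas (log2 fold change 0.20, adjusted p 0.0192) and in 24-mo than in 2-mo WT aortas (0.21, adjusted p 0.0472).

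Rian is a spliced noncoding RNA of the Dlk1-Dio3 cluster that hosts small nucleolar RNAs and microRNAs. It ranged from 91.45 to 116.9 CPM in HGPS mice with a median of 105.4, from 46.33 to 64.22 in 2-mo WT mice with a median of 61.32, and from 19.97 to 38.15 CPM in 24-mo WT mice with a median of 28.01. No pair of groups overlapped, so the order HGPS, 2-mo WT, 24-mo WT held for every mouse. HGPS aortas exceeded 2-mo WT aortas by 0.83 ± 0.118 on the log2 scale (adjusted p 2.38e-05) and 24-mo WT aortas by 1.91 ± 0.122 (adjusted p 1.07e-09), and 24-mo WT aortas fell below 2-mo WT aortas (log2 fold change -1.08 ± 0.121, adjusted p 5.44e-06). The lowest 2-mo WT mouse was replicate 6, the 95-d-old one, at 46.33 CPM, and without it the log2 fold change of HGPS against 2-mo WT was 0.76 ± 0.116 (adjusted p 7.22e-05).

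Meg3, a noncoding RNA at the start of the same stretch of maternal transcription, did not follow that order. It ranged from 3.676 to 14.44 CPM in HGPS, from 5.601 to 15.65 in 2-mo WT and from 0.9174 to 11.34 CPM in 24-mo WT aortas, with medians of 7.017, 7.596 and 4.799 CPM. The ranges overlapped in all pairs, and no comparison passed (log2 fold changes -0.22 ± 0.419 for HGPS and -0.58 ± 0.428 for 24-mo WT against 2-mo WT, adjusted p 0.705 and 0.433). Its SE was larger than that of Rian in both comparisons. Mirg, a noncoding RNA further along the cluster that is not among the members, was measured at 4.965 to 6.845 CPM in HGPS, 1.188 to 5.401 in 2-mo WT and 0.4931 to 1.853 CPM in 24-mo WT aortas. It was higher in HGPS (log2 fold change 0.88 ± 0.268, adjusted p 0.0124) and lower at 24 mo (-1.28 ± 0.295, adjusted p 0.00662) than in 2-mo WT mice.

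The ratio of counts between these neighbours was compared after their values were seen. HGPS mice had 8.05 to 26.1 Rian counts per Meg3 count with a median of 14.0, and 2-mo WT mice 4.02 to 10.8 with a median of 6.95. This difference was 1.08 on the log2 scale (two-sided exact permutation test of 6 against 6 mice, p = 0.00649, 0.039 adjusted over 6 such tests). The 24-mo WT ratios ran from 2.35 to 25.6 with a median of 5.11, and neither their difference from 2-mo WT (exact permutation p = 0.764) nor that from HGPS mice (exact permutation p = 0.0541) passed. The ratio of Rian to Mirg had medians of 19 in HGPS, 20.9 in 2-mo WT and 23 in 24-mo WT mice, and its 3 comparisons gave exact permutation p of 0.519, 0.58 and 0.0801. No difference between groups was thus detectable in that ratio.

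**Figure D3:**
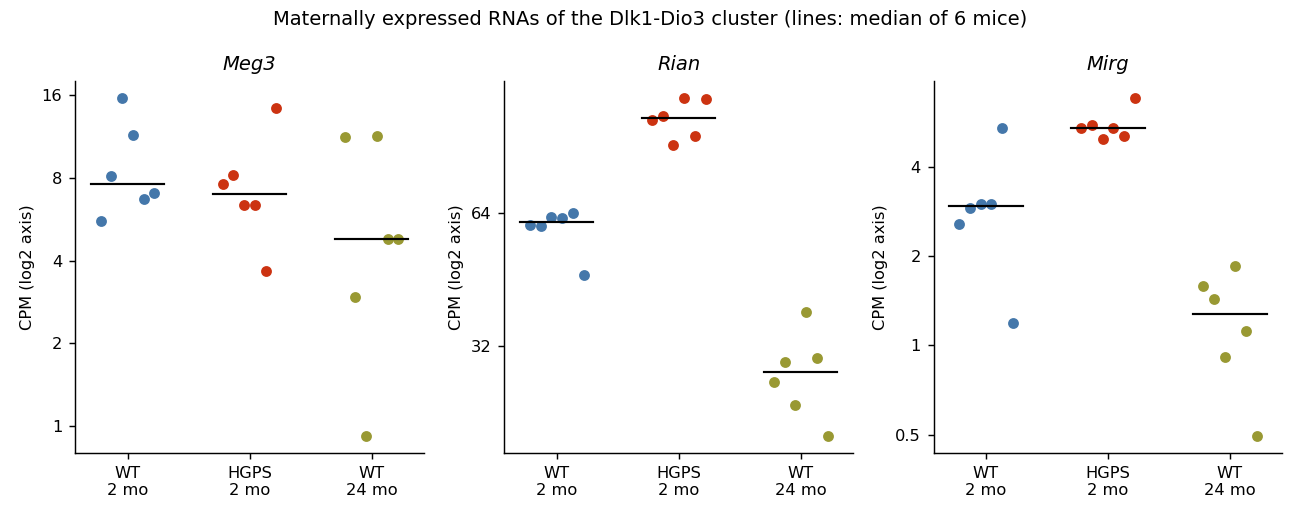
Levels of Meg3, Rian and Mirg in each mouse (CPM, log2 axis), with lines at the median of the 6 mice of a group. Rian falls from a median of 105.4 CPM in HGPS to 61.32 in 2-mo WT and 28.01 in 24-mo WT mice without overlap, and Meg3 overlaps in all groups.

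Dlk1, the paternally expressed gene of the cluster, encodes a membrane protein known as a brake on fat cell differentiation. It had 31 counts in the 18 mice together and 0 to 6 in any mouse. In 3 mice the count was 0, in 13 it was 1 to 3, and in 2 it was above 3. A floor of 3 counts corresponds to 0.0938 to 0.243 CPM, depending on the library, so a difference between groups was not detectable at this depth, and no fold is given.

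Mest encodes an enzyme-like protein of the endoplasmic reticulum associated with fat cell size and fetal growth. It ranged from 2.063 to 5.385 CPM in HGPS mice with a median of 2.889, from 0.6491 to 1.978 in 2-mo WT mice with a median of 1.699, and from 1.187 to 3.325 CPM in 24-mo WT mice with a median of 2.034. HGPS mice lay above all 2-mo WT mice and overlapped the 24-mo WT mice. The log2 fold change of HGPS against 2-mo WT was 1.07 ± 0.292 (adjusted p 0.00608) and against 24-mo WT 0.72 ± 0.287 (adjusted p 0.0447, a call lost in 14 of 23 alternatives), with counts of 8 to 107 per mouse. HGPS replicates 1 and 6, which were highest for H19, were also highest for Mest, at 4.823 and 5.385 CPM. Without them the log2 fold changes of Mest were 0.66 (adjusted p 0.0799) and 0.30 (adjusted p 0.405), so neither passed. Copg2, on the opposite strand, was lower in HGPS than in 2-mo WT aortas (log2 fold change -0.18, adjusted p 0.0254).

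Peg3 encodes a zinc finger protein that acts in growth and in cell death pathways. Its levels were 40.83 to 54.96 CPM in HGPS mice with a median of 50.83, 62.96 to 76.68 in 2-mo WT mice with a median of 73.23, and 49.76 to 59.76 CPM in 24-mo WT mice with a median of 52.98. All 12 HGPS and 24-mo WT mice lay below all 2-mo WT mice. The log2 fold change was -0.52 ± 0.071 in HGPS (adjusted p 1.42e-05) and -0.41 ± 0.0712 in 24-mo WT aortas (adjusted p 0.000643). Neither reached a 1.5-fold change, and between HGPS and 24-mo WT the difference was -0.11 ± 0.0711.

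Plagl1 encodes a zinc finger factor that slows the cell cycle and is known to act on other imprinted genes. In 2-mo WT mice it ranged from 5.05 to 7.546 CPM with a median of 5.834, in 24-mo WT mice from 3.513 to 4.905 with a median of 4.072, and in HGPS mice from 3.619 to 6.844 CPM with a median of 4.722. The 24-mo WT mice lay below the 2-mo WT mice without overlap (log2 fold change -0.55 ± 0.155, adjusted p 0.0252), and the HGPS mice overlapped both (-0.26 ± 0.152 against 2-mo WT, adjusted p 0.181). The call at 24 mo was lost without 2-mo WT replicate 4 (adjusted p 0.0638) or without 24-mo WT replicate 6 (adjusted p 0.0516).

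Ndn encodes necdin, a growth suppressor of the Prader-Willi region. It ranged from 13.95 to 20.95 CPM in 24-mo WT mice with a median of 16.76, from 19.49 to 28.67 in 2-mo WT mice with a median of 22.64, and from 16.59 to 23.7 CPM in HGPS mice with a median of 19.41. It was lower at 24 mo than at 2 mo (log2 fold change -0.45 ± 0.112, adjusted p 0.0123) although the ranges overlapped, and in HGPS the difference of -0.22 ± 0.11 did not pass (adjusted p 0.117).

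Cdkn1c encodes the cyclin-dependent kinase inhibitor p57. Its levels were 9.365 to 14.37 CPM in HGPS with a median of 10.89, 10.78 to 15.81 in 2-mo WT with a median of 12.57, and 13.9 to 17.36 CPM in 24-mo WT mice with a median of 16.34. The 2-mo WT group lay between the others and differed from neither past the threshold, with log2 fold changes of -0.20 ± 0.107 for HGPS and 0.29 ± 0.107 for 24-mo WT mice (adjusted p 0.14 and 0.0846). HGPS mice were lower than 24-mo WT mice by the test, with a log2 fold change of -0.49 ± 0.106 (adjusted p 0.00088). All 7 brown fat and 6 of 7 white fat markers were higher in HGPS than in 24-mo WT aortas. The other white fat marker was lower. All 7 macrophage markers and all 7 cell cycle genes were also higher in this comparison, and 6 of 7 smooth muscle markers were lower. The macrophage, cell cycle and smooth muscle scores were not fitted. With both fat scores in edgeR's fit, the log2 fold change of Cdkn1c was -0.35 and did not pass (adjusted p 0.13). Of all tested genes, 3657 were called in that fit, where 3618 higher and 3583 lower were called without the fat scores.

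Grb10 encodes an adaptor that binds the insulin and IGF receptors and damps their signal. It ranged from 88.57 to 132.5 CPM in HGPS with a median of 107.3, from 89.29 to 98.71 in 2-mo WT with a median of 93.74, and from 70.43 to 99.41 CPM in 24-mo WT mice with a median of 84.61. The 3 ranges overlapped. HGPS mice exceeded 24-mo WT mice (log2 fold change 0.36 ± 0.0909, adjusted p 0.00313), and neither differed from 2-mo WT past the threshold (0.17 ± 0.0907 and -0.18 ± 0.0911, adjusted p 0.13 and 0.213). Of the 8 fibroblast markers, 3 were higher and 2 lower in HGPS than in 24-mo WT aortas, so their score averages markers that moved in opposite directions. With the fibroblast score in the fit, the difference from 24-mo WT was 0.13 and did not pass (adjusted p 0.345). That between HGPS and 2-mo WT was then 0.38 and passed (adjusted p 0.00837).

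Cell type markers moved with both comparisons, and in whole aorta fewer cells of a type and less RNA per cell cannot be told apart. In HGPS against 2-mo WT aortas all 7 brown fat markers, 6 of 7 white fat markers, all 7 macrophage markers and all 7 cell cycle genes were higher, and 5 of 7 smooth muscle and 3 of 8 fibroblast markers were lower. The white fat score, the mean log2 CPM of its markers, ranged from 5.557 to 7.199 in HGPS and from 3.986 to 6.088 in 2-mo WT mice, and the brown fat score from 4.721 to 6.782 and from 1.217 to 5.067. With both fat scores in edgeR's fit, the log2 fold change of Mest between HGPS and 2-mo WT was 0.32 (adjusted p 0.546). H19, Rian and Peg3 stayed past the threshold. Of all tested genes, 3416 were called with the fat scores, where 3340 higher and 3227 lower were called without them. Both fat scores were themselves higher in HGPS mice, so this fit cannot fully separate genotype from the level of fat markers. The macrophage, smooth muscle and cell cycle scores were not fitted, and their part in the members' values was not tested. In 24-mo against 2-mo WT aortas 5 of 8 fibroblast markers were lower and none higher, and the fibroblast score ranged from 8.5 to 8.883 at 24 mo and from 9.164 to 9.378 at 2 mo without overlap. Of the 4 tested nerve and Schwann cell markers 3 were higher at 24 mo and none lower, and their score, 2.637 to 2.972 at 24 mo and 2.187 to 2.495 at 2 mo, did not overlap either. The part of the nerve and Schwann cell score in the members' values was not tested. With the fibroblast score in edgeR's fit, 0 members were called at 24 mo and 2 had an unadjusted p under 0.05. Of all tested genes, 97 were called. The log2 fold changes were then -0.52 for Rian, -0.20 for Peg3, -0.02 for Plagl1 and -0.37 for Ndn. The fibroblast score separates the 2 WT ages, so age and the level of fibroblast markers cannot be told apart for these members. No marker of the 10 lists was at 0 throughout a group.

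Beyond the members, 61 other imprinted genes were taken from a list of clusters, and 44 of them passed the filter on low counts. In HGPS against 2-mo WT aortas 10 were higher, 13 lower and 21 did not pass, against 22% higher and 21.2% lower among all tested genes, with a median log2 fold change of 0.07. Tnfrsf23, a decoy receptor in the Kcnq1 domain near H19 and Cdkn1c, was 4.13-fold higher (8.625 against 2.074 CPM, adjusted p 1.54e-06), and Peg10, a retrotransposon-derived placental gene, 2.45-fold higher (adjusted p 2.69e-05). Mirg, Mcts2, Commd1 and Pon3 were the next largest rises, with log2 fold changes of 0.88, 0.47, 0.39 and 0.34. The largest falls were those of Cobl, beside Grb10, at -0.96, Sfmbt2 at -0.92, Peg13 at -0.72, Sgce at -0.62, Zrsr1 at -0.61 and Snrpn at -0.54 on the log2 scale.

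In 24-mo against 2-mo WT aortas 7 of these 44 genes were higher, 3 lower and 34 did not pass, against 6.29% higher and 5.38% lower among all tested genes, with a median log2 fold change of 0.04. The organic cation transporter gene Slc22a3 rose 4.2-fold (adjusted p 2.6e-05) and Nnat, which encodes neuronatin, 2.82-fold (adjusted p 0.0308). Peg13, Snrpn, Impact and Igf2r followed with 0.30, 0.29, 0.27 and 0.21 on the log2 scale. The falls were those of Peg12 (log2 fold change -1.55), Tfpi2 (-1.34) and Mirg (-1.28). In HGPS against 24-mo WT aortas 13 were higher and 15 lower, against 23.8% and 23.6% of all tested genes. They were led by Mirg at 2.16, Tnfrsf23 at 2.11, Tfpi2 at 2.02, Peg12 at 1.60, Zim1 at 1.41 and Peg10 at 0.93, and by Slc22a3 at -1.82, Nnat at -1.38, Nap1l5 at -1.05, Peg13 at -1.01, Snrpn at -0.83 and Zrsr1 at -0.72 on the log2 scale.

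**Figure D4:**
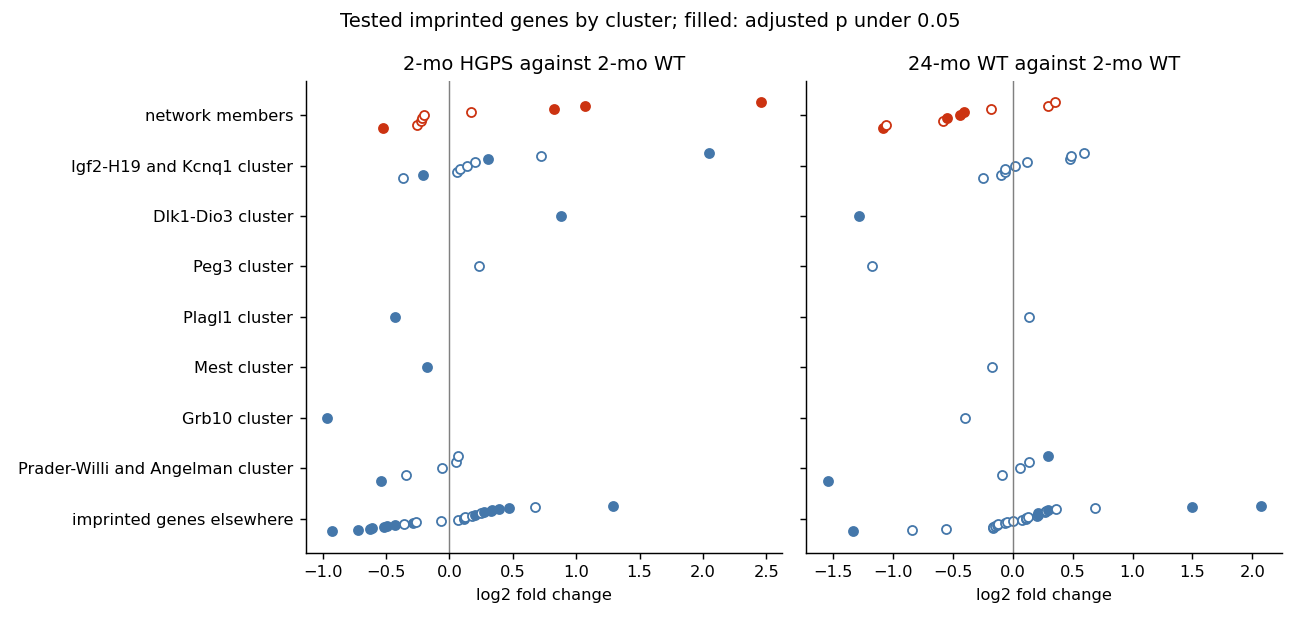
Log2 fold changes (horizontal axis) of the tested imprinted genes by cluster, 1 point per gene, for 2-mo HGPS against 2-mo WT (left) and 24-mo against 2-mo WT mice (right). Filled points passed an adjusted p under 0.05, with members in red, where 4 of 9 are filled in each panel, and other imprinted genes in blue, where 23 and 10 of 44 are filled.

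Over single mice, no pair of members passed the adjusted test for varying together once the group means were removed. Among the 36 pairs of the 9 tested members, Pearson's r of these deviations ran from -0.486 to 0.567 over 18 mice with a median of 0.207, and 24 pairs were positive. The permutation test within groups gave 7 pairs with an unadjusted p under 0.05 by Pearson's r and 5 by Spearman's rho, and 0 after adjustment over the 36 pairs by either. The highest r was that of H19 with Mest, at 0.567 (permutation p = 0.0237, adjusted 0.226; rho 0.676, permutation p = 0.00567, adjusted 0.204). It was 0.594 without the 2 mice whose H19 deviation from the group mean lay farthest, in either direction, from the median deviation. This pair is not HGPS replicates 1 and 6, and r without those 2 mice was not computed. Within groups, r of H19 with Mest was 0.825 in HGPS, 0.253 in 2-mo WT and 0.438 in 24-mo WT mice. Next came Peg3 with Plagl1 at 0.563 (permutation p = 0.0364) and Rian with Peg3 at 0.522 (permutation p = 0.0171), and the lowest r was that of Peg3 with Cdkn1c, at -0.486. Within single groups of 6 mice r varied more widely and was not tested. For Rian with Plagl1 it was 0.933 in 24-mo WT and 0.0624 in 2-mo WT mice. For Peg3 with Ndn it was -0.871 in 2-mo WT and 0.178 in 24-mo WT mice.

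**Figure D5:**
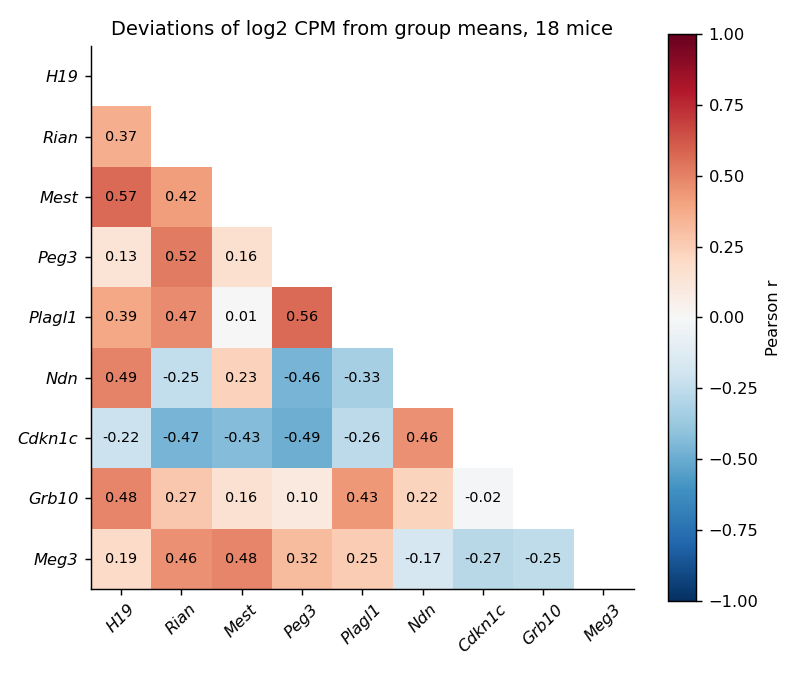
Pearson's r between pairs of the 9 tested members, from deviations of log2 CPM from the group means in 18 mice. Colour and printed value give r, from -0.486 for Peg3 with Cdkn1c to 0.567 for H19 with Mest.

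The genes whose level was most like that of H19 over all 18 mice, group differences included, were Cthrc1, Col12a1, Lamb1, Nt5dc2 and Mmp14, with Pearson's r of log2 CPM from 0.923 to 0.94. Those most like Rian were Sparc, Ppic, Lox, Igf1 and Zdhhc2, with r from 0.957 to 0.971. Meg3 reached r = 0.414 with Rian, rank 4012 of the tested genes, and 0.286 with H19, rank 5202. These values describe the 18 mice, whose groups lie apart, and carry no test.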

How the data were processed

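RNA from whole descending aortas of 18 mice was sequenced with a stranded ribosomal-RNA-depleted kit, paired end. The authors assigned reads to GENCODE M23 transcripts (GRCm38.p6) with salmon and used tximport for gene sums. The deposited values are estimated counts per gene, written as whole numbers and not normalized. Whether they were rounded is not stated. The submitters' processing notes also name Bowtie 0.12.2, with no role given. The authors' own test was DESeq2. Totals ran from 12413229 to 30844775 counts per mouse (17838351 to 30844775 in HGPS, 12413229 to 21016752 in 2-mo WT and 13622602 to 19871697 in 24-mo WT mice), and intervals from them would cover counting error only. Groups and replicate numbers came from the sample labels. No 2 libraries of a group agreed within sampling noise (45 pairs, with a chi-square of 7.64 to 93.6 for each degree of freedom).

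A gene entered the tests when 6 or more mice had 10 or more counts of it (15210 genes). Counts were scaled by TMM and tested with edgeR 4.0.16 (glmQLFit, glmQLFTest, R 4.3.3), with all 3 groups in 1 fit and 15 residual degrees of freedom. Benjamini-Hochberg adjustment ran over these genes, and an adjusted p under 0.05 is a call. SE was taken as the size of the log2 fold change over the root of its F statistic. CPM uses the TMM-scaled library, and log2 CPM a prior count of 2. Symbols, coordinates and exon lengths came from GENCODE M21, on the same assembly, in which 54107 identifiers were found. The members, the lists of other imprinted genes and markers, and the tests were chosen with earlier results of these data known. All members are named, with Igf2, Igf2r and the 6 largest rises and falls among called imprinted genes. Copg2 was named, and the ratio tests were chosen, after values were seen.

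Alternatives were DESeq2 1.42.0, other scalings and count filters, 2 groups alone, a replicate block, fat or fibroblast scores as covariates, the study's cut-offs, another prior count, and each mouse left out. Correlations used 100000 resamples within groups. The fits were tested on simulated data. Columns of no sample numbered 0.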

Additional observations from a re-analysis of the deposited data

Results flagged for a closer look

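Of 30 sets of 6 mice (10 members in 3 groups), 2 had a mouse farther from the rest than Dixon's 95% critical value for the gap divided by the range, where chance gives about 1 in 20. Rian in 2-mo WT replicate 6 stood at 46.33 CPM (897 counts), with the next mouse at 59.89, a gap of 0.758 of the range. This is the 95-d-old mouse. Mest in 2-mo WT replicate 4, the shallowest library of the series, stood at 0.6491 CPM (8 counts), with the next mouse at 1.55, a gap of 0.678 of the range.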

How the results depend on the processing

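Of the 9 tested members, 4, 4 and 5 were called in HGPS against 2-mo WT, 24-mo against 2-mo WT and HGPS against 24-mo WT. At the study's cut-offs these counts were 2, 1 and 2, and those of the other imprinted genes 7, 1 and 10 in place of 23, 10 and 28. With the fibroblast score as a covariate, 0 members were called at 24 mo against 2 mo and 3 between HGPS and 24-mo WT; log2 fold changes then turned for H19 (0.24), Meg3 (0.45) and Grb10 (0.25) in the age comparison and for Meg3 in HGPS against 2-mo WT (0.29) and against 24-mo WT (-0.15), none of which had been called. Plagl1 in HGPS turned to 0.033 with fat scores, and Meg3, which ran from -0.49 to 0.00086 with single mice left out, turned without 2-mo WT replicate 3. The cause was not tested. With each mouse left out in turn, 4 to 5, 3 to 5 and 4 to 5 members were called. H19, Rian and Peg3 stayed called in HGPS against 2-mo WT under all these fits, with log2 fold changes of 1.53 to 3.05, 0.76 to 1.11 and -0.56 to -0.42. Without HGPS replicates 1 and 6 together, added after seeing the data, 3 and 4 members were called. Mest between HGPS and 24-mo WT was lost in 14 of 23 alternatives (adjusted p up to 0.743), among them those without HGPS replicate 1, 3 or 6 and without 24-mo WT replicate 1, 2, 3, 5 or 6. Calls appeared for Plagl1 and Cdkn1c in HGPS against 2-mo WT without HGPS replicate 4 (-0.37, adjusted p 0.0455) and 5 (-0.28, adjusted p 0.0308), for Cdkn1c at 24 mo against 2 mo without 2-mo WT replicate 6 (0.36, adjusted p 0.0344), and for Ndn between HGPS and 24-mo WT without 24-mo WT replicate 2 (0.29, adjusted p 0.04). H19 fell at 24 mo with 2 groups alone (-1.05, adjusted p 0.0397), and Meg3 with fat scores (-1.60, adjusted p 0.00556). Between HGPS and 24-mo WT, fat scores added Plagl1 (0.66, adjusted p 0.0332) and removed Cdkn1c (-0.35, adjusted p 0.13), and the fibroblast score removed Grb10 (0.13, adjusted p 0.345). The fibroblast score added Grb10 in HGPS against 2-mo WT (0.38, adjusted p 0.00837). Replicate numbers name different animals and same-numbered mice did not deviate together (r -0.162 to 0.172 over 18 pairs); with the replicate block 4, 4 and 4 members were called, the lost one being Mest between HGPS and 24-mo WT (0.67, adjusted p 0.104). Other scalings moved the median of all genes by at most 0.0159 on the log2 scale. Dlk1 was too low to test, and H19 at 24 mo and Mest had few counts, whose part in their calls was not tested.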
